A study of Homo sapiens with 4 samples.

Results

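The spliceosomal U1, U4 and U5 snRNA genes comprise 9 genes of the 62700 in the deposited count table: RNU1-1 and RNU1-2 for U1, RNU4-1 and RNU4-2 for U4, and RNU5A-1, RNU5B-1, RNU5D-1, RNU5E-1 and RNU5F-1 for U5. They were chosen by name as members that are not annotated as pseudogenes. RNA was sequenced from HEK293T, an established human embryonic kidney line whose labels describe it as a stably growing clone of HEK293. All cells carried the CMV-V5-MITO-PRADA construct, a V5-tagged labelling construct under the CMV promoter, named in the titles for the mitochondrial matrix. All were also given 100 µM s4U, a uridine analogue that cells build into new RNA, for 5 h, and then 0.5 mM alkyne phenol together with s4U for 30 min. The labelled group (2 libraries, 4SU+AP+DF in the titles) is taken to have then received 10 mM D-amino acid for 30 min, which starts the reaction, and the unlabelled group (2 libraries, 4SU+AP) to have gone without it. The titles do not spell out DF: this reading rests on the protocol, whose unlabelled control omits the D-amino acid. GEO's design text says that RNA was enriched after labelling. Because the titles call the libraries biological replicates without saying how cultures were separated, the tests weigh differences only against the library-to-library spread seen here, which may be partly technical.

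These genes make short, structured RNAs that, with bound proteins, form the cores of the small nuclear ribonucleoproteins (snRNPs) that remove introns from pre-mRNA in the nucleus. U1 pairs with the start of an intron, U4 escorts U6 in an inactive form until the spliceosome is activated, and U5 holds the exon ends together during the joining of exons. Each RNA is made by RNA polymerase II, exported to the cytoplasm to receive a ring of Sm proteins at its Sm site, and returned to the nucleus. They come from the nuclear genome and are known as nuclear RNAs, whereas the PRADA construct was directed to mitochondria.

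The U1 and U4 RNA sequences are shown because they set which fragments could be counted: only uniquely mapped fragments were kept, and members resemble each other and other loci. All are from the GENCODE 29 transcripts (GRCh38) and are written 5′ to 3′ as DNA. Each member is a single exon, and the coordinates in GENCODE 29 equal those of the deposited table. In U1, capitals mark the segment that pairs with the intron start (ACTTACCTG) and the Sm site (AATTTGTGG). RNU1-1 lies on the minus strand at chr1:16514122-16514285, and RNU1-2, on the plus strand at chr1:16895980-16896143, has the same 164 bases.
RNU1-1: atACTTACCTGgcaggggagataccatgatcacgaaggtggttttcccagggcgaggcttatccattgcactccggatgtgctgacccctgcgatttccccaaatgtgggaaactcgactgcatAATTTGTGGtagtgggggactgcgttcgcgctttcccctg
The U4 genes lie on the minus strand 1193 bases apart, RNU4-2 at chr12:120291763-120291903 and RNU4-1 at chr12:120293097-120293237. Capitals mark the 4 of 141 positions at which they differ. Counted from the 5′ end, with the RNU4-1 base first, the differences are C37T, G88A, C99A and C113T.
RNU4-1: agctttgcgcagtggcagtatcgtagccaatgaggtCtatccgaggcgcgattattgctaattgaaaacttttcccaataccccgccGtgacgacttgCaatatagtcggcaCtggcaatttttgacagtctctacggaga
RNU4-2: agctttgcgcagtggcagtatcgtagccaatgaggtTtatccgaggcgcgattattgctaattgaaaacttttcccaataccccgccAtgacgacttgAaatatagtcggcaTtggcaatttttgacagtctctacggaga
Of the U5 genes, RNU5A-1 (chr15:65296051-65296166) and RNU5B-1 (chr15:65304677-65304792) lie on the plus strand, RNU5F-1 (chr1:44721786-44721902) and RNU5D-1 (chr1:44731055-44731170) on the minus strand, and RNU5E-1 (chr1:11908152-11908271) on the plus strand.
Among 1900 snRNA transcripts of GENCODE 29, searched on the transcribed strand, the U1 pairing segment occurred in 2.63% and the U1 Sm site in 3.58%. Thymine, which stands for uridine in the RNA, made up 26.2% of U1 and 27.0 to 28.4% of U4 bases.

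Fragments assigned to genes numbered 8172347 and 5771795 without the D-amino acid and 9380258 and 12287451 with it. The mitochondrial chromosome took 9.04 and 10.4% of unlabelled and 27.0 and 30.9% of labelled fragments, so levels below are counts per 1000000 fragments scaled by TMM (CPM), which sets aside a shift carried by few genes. Unlabelled replicate 2 stood apart before any comparison. Its median absolute log2 difference to the other libraries was 0.257 to 0.294, against 0.141 between the labelled replicates. Unlabelled replicate 1 differed from labelled replicates 1 and 2 by 0.184 and 0.202, less than from unlabelled replicate 2 (0.257). In unlabelled replicate 2, 26.5% of records were unmapped against 11.6 to 18.1% elsewhere. Of the 7 HEK293T markers, 6 were at 1 or more per 1000000 assigned fragments in every library. Markers of other cell types were low in sum (0.213 to 21.4 fragments per 1000000 assigned for each list, without TMM), and HBB, CD3E, COL1A2 and DCN had no fragment.

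The counting reached the members to very different degrees. For U1, every window of 50 bases in RNU1-1 and RNU1-2 also occurs in another annotated gene, and 8 loci hold the whole sequence. A fragment lying inside those 164 bases has no single best place, so by the construction of unique mapping the fragments counted at either gene carried bases outside it. For U4, 12 of 92 such windows of RNU4-1 and 1 of 92 of RNU4-2 were found in other genes. Among the U5 genes the number was 9 of 67 for RNU5A-1 and RNU5B-1, 16 of 67 for RNU5D-1 and 0 of 68 for RNU5F-1. Only annotated transcripts were searched, so matches elsewhere in the genome are not included. Multi-mapped records, which hold every library's lost fragments of all genes and can list 1 fragment several times, numbered 2.77 and 1.24 per assigned fragment without labelling against 0.646 and 1.30 with it, so the groups overlapped. How much of this came from snRNA was not tested.

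Together the 9 genes took 258 and 208 unlabelled and 495 and 731 labelled fragments. On the CPM scale this was 28.7 and 31.4 against 57.7 and 70.3, with means of 30.1 ± 1.87 and 64.0 ± 8.91 (SD, n = 2), a ratio of 2.13. Both labelled libraries lay above both unlabelled ones, and the gap was larger than the spread within either group. The samples are bulk and hold RNA enriched after labelling, so the ratio compares recovered fragments between the groups. The number of contributing cells, RNA per cell and recovery in the enrichment cannot be told apart, and no cause was tested. By class, over the member genes alone, the ratio was 2.48 for U1, 1.85 for U4 and 2.18 for U5. The U1 ratio covers RNU1-1 and RNU1-2 only, so it does not rank U1 RNA as a whole. Other tested loci with the same U1 sequence had log2 fold changes of 0.72 (RNVU1-29), 0.63 (RNVU1-18) and -1.24 (RNU1-28P). U5 genes held 58.1 to 66.3% of the fragments of the 9 genes, and U1 genes 10.6 to 13.1%.

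Gene by gene, 8 of the 9 members were tested, and 0 of 8 passed an adjusted p under 0.05 in edgeR in either direction. Over all 18973 genes tested, 0.269% passed as higher and 0.0158% as lower. At an unadjusted p under 0.05, 7 of 8 members were on the higher side and 0 on the lower, where all genes gave 5.67% higher and 5.88% lower. DESeq2 also passed 0 of 8, beside 0.332% of all genes tested passing as higher. The 8 log2 fold changes were all above 0, against 48.0% of all genes tested, and ranged from 0.43 to 1.47 with a median of 1.07, where the median of all genes tested was -0.01. In all 8 both labelled libraries lay above both unlabelled ones, which held for 22.2% of all genes tested, while 22.4% lay the other way round. Because members resemble one another and share libraries, these counts describe the set and are not 8 independent results. They include RNU5A-1, which met the filter on low counts in both labelled libraries but only 1 unlabelled library. A positive value of RNU5A-1 was thus favoured by the filter.

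**Figure D1:**
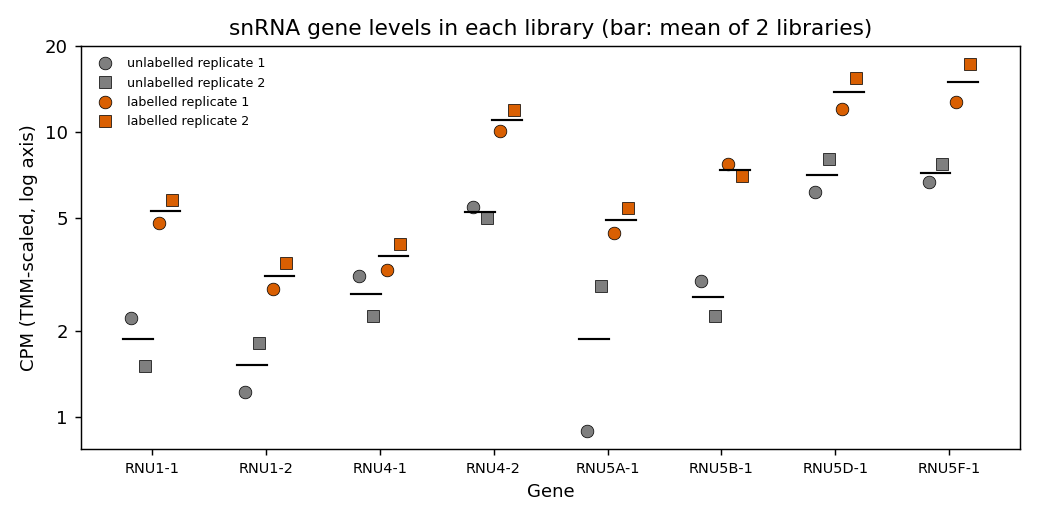
Level of each tested snRNA gene in each of the 4 libraries, in TMM-scaled CPM on a log axis; grey is unlabelled, orange is labelled, circles and squares are replicates 1 and 2, and bars are means of 2 libraries. Orange points lie above grey points for all 8 genes, by the narrowest margin for RNU4-1 (3.27 against 3.12 CPM).

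Of the 3 classes of members, the 2 U1 genes had the fewest counted fragments in every library. Outside the set, 31 copies and relatives of U1 held 659 and 467 unlabelled and 817 and 1389 labelled fragments. RNU1-1 (ENSG00000206652) had 20 and 10 unlabelled against 41 and 60 labelled fragments, or 2.23 and 1.51 against 4.78 and 5.77 CPM. Its groups were well apart, with a log2 fold change of 1.47 ± 0.35 (SE) and an edgeR adjusted p of 0.159. RNU1-2 (ENSG00000207005), which makes the same RNA, had 11 and 12 against 24 and 36 fragments, or 1.23 and 1.81 against 2.80 and 3.46 CPM. The groups did not overlap, and the log2 fold change was 1.07 ± 0.41 with an adjusted p of 0.364 in edgeR. RNU1-2 lies in an intron of CROCC on the same strand, and CROCC itself stood at 24.8 and 28.8 against 27.6 and 22.1 CPM (log2 fold change -0.11 ± 0.15), with overlapping groups.

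Fragments were also counted at other loci that hold the identical U1 sequence, where unique mapping again requires bases outside it. RNVU1-29 and RNVU1-18 had log2 fold changes of 0.72 ± 0.26 and 0.63 ± 0.30, and the copy RNU1-28P on chromosome 14 had -1.24 ± 0.53, at 1.34 and 2.26 against 0.466 and 0.962 CPM. RNU1-28P passed the filter on low counts through the unlabelled libraries alone, so a negative value was favoured by the filter. The edgeR adjusted p-values of these 3 were 0.344, 0.444 and 0.408. RNU1-3, RNU1-4 and RNU1-27P were not tested, with at most 14 fragments in any library.

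The 2 U4 genes had unlike estimates of change, and the fit did not test them against each other. RNU4-2 (ENSG00000202538) had 49 and 33 unlabelled against 86 and 124 labelled fragments, or 5.46 and 4.98 against 10.0 and 11.9 CPM. Both labelled values lay far above the unlabelled ones, with a log2 fold change of 1.07 ± 0.23 and an edgeR adjusted p of 0.119. RNU4-1 (ENSG00000200795) had 28 and 15 against 28 and 42 fragments, or 3.12 and 2.26 against 3.27 and 4.04 CPM. Its groups nearly touched, and its log2 fold change of 0.43 ± 0.35 was the smallest of the 8 (edgeR adjusted p 0.661, unadjusted p 0.248). It became 0.73 when unlabelled replicate 1 was left out, 0.24 when unlabelled replicate 2 was and 0.27 when labelled replicate 2 was.

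Read as a share, which is independent of scaling, RNU4-2 held 63.6% (95% Wilson interval 52.5 to 73.5%) and 68.8% (54.7 to 80.1%) of the U4 fragments in the first and second unlabelled replicate. In labelled replicates 1 and 2 it held 75.4% (66.8 to 82.4%) and 74.7% (67.6 to 80.7%). The group means were 66.2 ± 3.62% and 75.1 ± 0.523% (SD, n = 2), a difference of 8.88 percentage points. The groups did not overlap, but all 4 intervals did, at 48 to 166 fragments per library. Overlap of separate intervals is not a test of the difference. The two-sided exact permutation test gave p = 0.33, the smallest that 2 against 2 libraries allow, so it could not decide whether the share differed. Such intervals express counting error alone, since PCR copies of a molecule may have been counted more than once.

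**Figure D2:**
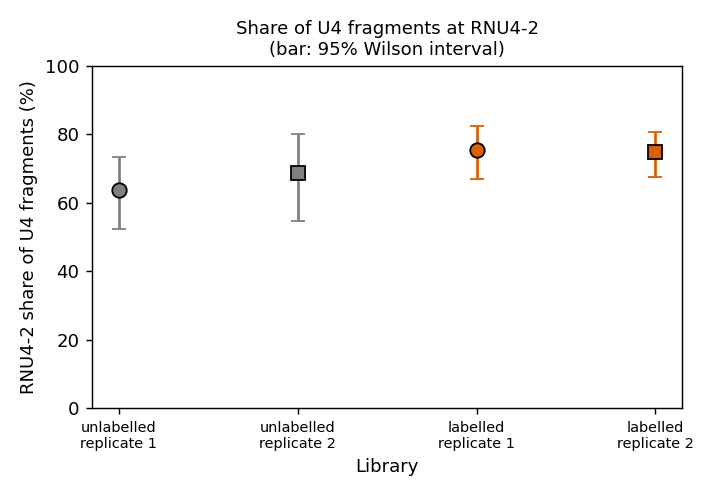
Share of U4 fragments counted at RNU4-2 rather than RNU4-1 in each library, in percent, with 95% Wilson intervals as bars. Labelled libraries lie at 75.4 and 74.7% and unlabelled libraries at 63.6 and 68.8%, and all 4 intervals overlap.

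The U5 genes held most of the fragments. RNU5F-1 (ENSG00000199377) had 60 and 51 unlabelled against 109 and 179 labelled fragments, or 6.68 and 7.69 against 12.7 and 17.2 CPM. RNU5D-1 (ENSG00000200169), its neighbour 9152 bases away, had 55 and 53 against 103 and 161, or 6.12 and 7.997 against 12.01 and 15.5 CPM. Both genes were lowest in unlabelled replicate 1 and highest in labelled replicate 2, and their groups did not overlap. Their log2 fold changes were 1.07 ± 0.22 and 0.98 ± 0.23, with edgeR adjusted p-values of 0.0948 and 0.147. RNU5F-1 lies in an intron of ARMH1 on the opposite strand, and the counts were made without strand. ARMH1 stood at 2.00 and 1.96 against 1.28 and 1.73 CPM, below RNU5F-1 in every library, with a log2 fold change of -0.38 ± 0.42.

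RNU5B-1 (ENSG00000200156) had 27 and 15 unlabelled against 66 and 73 labelled fragments, or 3.01 and 2.26 against 7.70 and 7.02 CPM. Replicates lay close together in both groups, and its log2 fold change of 1.45 ± 0.30 had the smallest adjusted p of the 8 (edgeR, 0.0936). RNU5A-1 (ENSG00000199568) had 8 and 19 against 38 and 56 fragments, or 0.891 and 2.87 against 4.43 and 5.39 CPM. Here the unlabelled replicates differed by more than 3-fold, and the log2 fold change of 1.47 ± 0.45 (edgeR adjusted p 0.299) was 2.46 without unlabelled replicate 2 and 0.81 without unlabelled replicate 1. RNU5A-1 passed the filter on low counts through both labelled libraries but only 1 unlabelled library, so a positive value was favoured. The other 7 tested members passed it in all 4. RNU5A-1 lies in an intron of PARP16 on the opposite strand, which stood at 14.5 and 11.8 against 14.2 and 15.3 CPM (log2 fold change 0.16 ± 0.18).

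RNU5E-1 (ENSG00000199347) was listed at 0 in all 4 libraries and was not tested. A count of 3 fragments, the limit that a count of 0 allows, corresponded to 0.244 to 0.520 per 1000000 assigned fragments. This limit does not describe the RNA, because all 120 bases of RNU5E-1 lie in exons of ENSG00000285646 (chromosome 1, 11907940 to 11914298, same strand), and fragments that touch both genes are ambiguous and stayed unassigned. ENSG00000285646 had 78 and 33 unlabelled against 174 and 255 labelled fragments, or 8.69 and 4.98 against 20.3 and 24.5 CPM. It rose, with a change of 1.68 ± 0.23 in log2 units and an adjusted p of 0.00711 from edgeR. The copy RNU5E-4P, on the opposite strand within the span of that gene, had 8 and 7 against 25 and 45 fragments, or 1.91 ± 0.44 on the log2 scale, at an adjusted p of 0.141 in edgeR. RNU5E-4P passed the filter on low counts through both labelled libraries but only 1 unlabelled library, so a positive value was favoured.

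Levels of different genes were compared per kilobase of annotated length, in CPM per 1000 bases of uniquely mapped fragments. In unlabelled libraries RNU5F-1 stood highest at 61.4 ± 6.12 (SD, n = 2), followed by RNU5D-1 at 60.9 ± 11.4, whose range overlapped it. RNU4-2 at 37.0 ± 2.40 lay below both without overlap, and RNU5B-1 at 22.7 ± 4.53 lay below RNU4-2 in turn. RNU4-1 (19.1), RNU5A-1 (16.2), RNU1-1 (11.4) and RNU1-2 (9.25) each overlapped the neighbour above. In labelled libraries the first 4 kept this order, at 127.9 ± 27.2, 118.5 ± 21.2, 77.9 ± 9.53 and 63.4 ± 4.11. RNU5A-1 (42.3), RNU1-1 (32.2), RNU4-1 (25.9) and RNU1-2 (19.1) came after them, each apart from its neighbour. RNU4-1 thus lay below RNU5A-1 and RNU1-1 in the labelled libraries. In the unlabelled libraries RNU4-1 lay above RNU1-1, at 16.1 to 22.1 against 9.20 to 13.6. Against RNU5A-1, which ranged from 7.68 to 24.7 there, RNU4-1 was higher in the mean only. These levels depend on how many fragments of each gene can be placed uniquely and do not give the abundance of the RNAs.

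With all 4 libraries and the main settings no member passed the edgeR threshold. Each library was also left out in turn. In each of these fits the lone library of a group is assumed to vary like the other group, so no calls are given from them. Without unlabelled replicates 1 and 2 in turn, the median log2 fold change of the members was 0.91 and 1.22. Leaving out labelled replicates 1 and 2 in turn gave 1.26 and 0.93. All 8 log2 fold changes stayed above 0 in all 4 fits, and the median lay between 0.91 and 1.26.

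**Figure D3:**
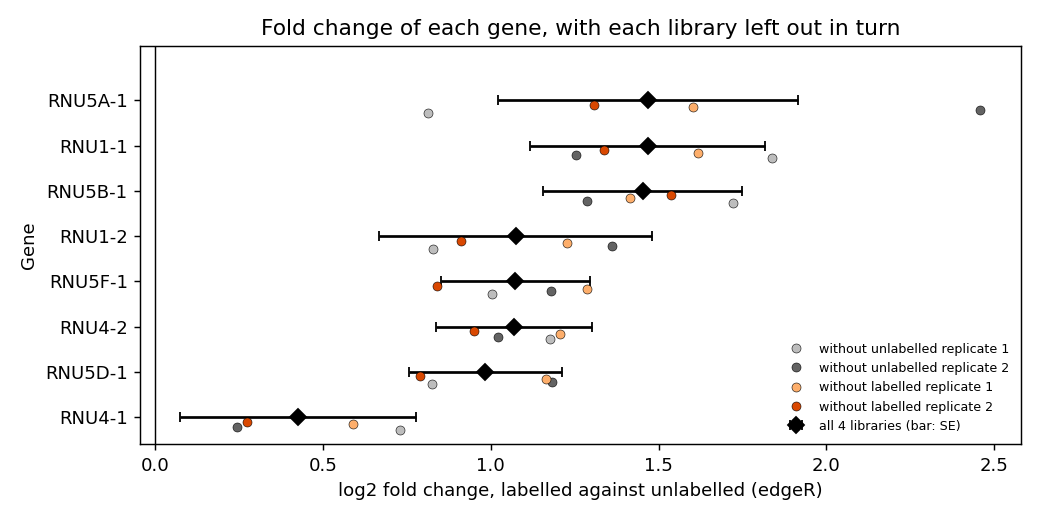
The log2 fold change (labelled against unlabelled, edgeR) of each tested snRNA gene with its standard error, and the same value with each library left out in turn. Values lie above 0 throughout, and RNU5A-1 spans 0.81 to 2.46.

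Scaling set the size of the difference. With library size alone, all genes tested had a median of -0.37 on the log2 scale, the members had 0.71 and RNU4-1 had 0.07, and RNU5B-1 passed the threshold there (log2 fold change 1.11, edgeR adjusted p 0.0386). All 8 members remained above 0 on that scale.

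The other genes of the pathway were read from 7 lists, in which 0 genes passed edgeR over all genes tested in either direction. Of 12 other snRNA genes (U2, U6, U7 and the minor spliceosome, which removes a rare class of introns), 4 were at 0 throughout, RNU2-1, RNU2-2P, RNU7-1 and RNU12, and only RNU4ATAC was tested. With only uniquely mapped, unambiguous fragments counted, a 0 does not show that the RNA was absent. Copies and overlapping genes of these 4 were not examined. RNU4ATAC, the U4 counterpart of the minor spliceosome, had 3.45 and 3.47 against 6.53 and 7.70 CPM, with no overlap and a difference of 1.04 ± 0.28 in log2 units (adjusted p 0.233 in edgeR). Of 31 U1 variant genes, which are copies and relatives of U1 mostly on chromosome 1, 15 were tested and 13 lay above 0, with a median of 0.73 and 6 higher and 1 lower at an unadjusted p under 0.05. The smallest p-values were those of RNVU1-27 at 0.77, RNVU1-15 at 0.81 and RNVU1-8 at 0.99 on the log2 scale. Their summed level was 73.4 and 70.5 CPM unlabelled against 95.3 and 133.6 CPM labelled, without overlap.

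Annotated pseudogene copies of U1, U4 and U5 did not show that separation in their sum. The 226 copies, 127 of them at 0, summed to 26.3 and 35.6 CPM in the unlabelled and 31.5 and 27.6 CPM in the labelled libraries, with overlapping groups. Of these 6 were tested, 4 lay above 0, and 1 was higher and 1 lower at an unadjusted p under 0.05. RNU5E-4P was at 1.91, RNU4-89P at 0.97 and RNU1-28P, which is also in the list of U1 variants, at -1.24 on the log2 scale. RNU4-89P passed the filter through the labelled libraries alone and RNU1-28P through the unlabelled ones alone. RNU5E-4P reached the cutoff in both labelled libraries but only 1 unlabelled library. The filter thus favoured the sign of each.

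Messenger RNAs of the proteins that bind or build these snRNPs were centred near 0. The Sm ring and U1 proteins had a median log2 fold change of 0.02 over 10 tested genes, with SNRPD1, a subunit of the ring, at 0.39 and SNRPC, the U1-specific protein C, at -0.39, both at an edgeR adjusted p of 0.316 to 0.317, and SNRPD2 at -0.31. The proteins of U4/U6 and U5 had 0.11 over 23 genes, with PRPF6 at 0.46, DDX23 at 0.44 and LSM6 at 0.40. The assembly factors had 0.09 over 21 genes, with PHAX, the export adaptor of snRNA, at 0.41, SNUPN, the adaptor for return to the nucleus, at 0.38, and GEMIN7 of the SMN complex at -0.77. The factors of snRNA transcription and 3′ end processing had 0.01 over 28 genes, with INTS12 of the Integrator complex at 0.53, SNAPC5 of the snRNA-activating complex at 0.37 and the transcription factor ZNF143 at 0.31. At an unadjusted p under 0.05 these 4 lists held 1, 3, 2 and 2 higher and 1, 1, 1 and 0 lower genes, in that order. Whether the snRNA genes differ from these lists was not tested.

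**Figure D4:**
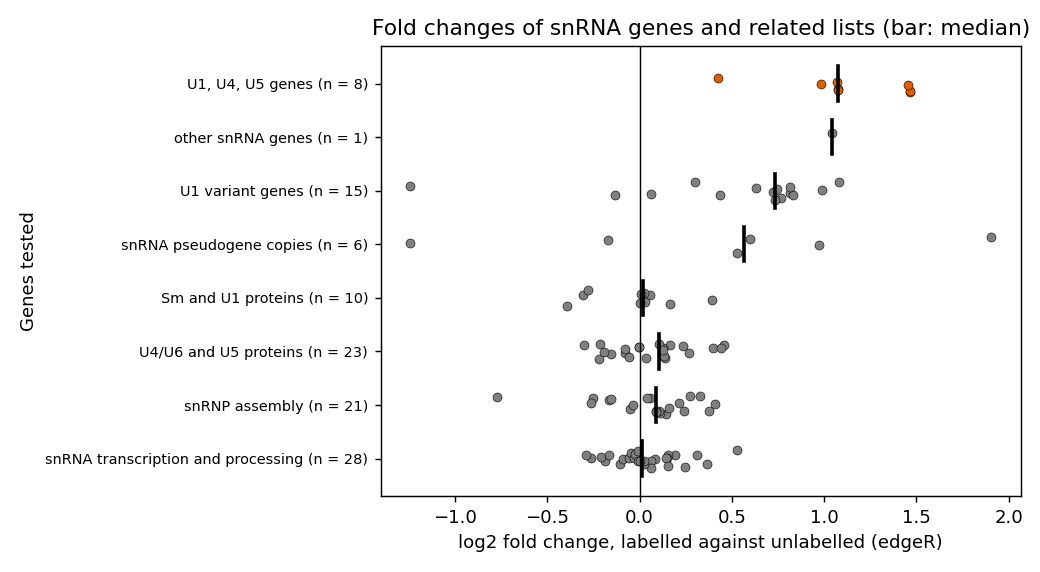
The log2 fold change (labelled against unlabelled, edgeR) of each tested gene in the U1, U4 and U5 set (orange) and in 7 related lists (grey), with medians as bars. The median is 1.07 for the snRNA genes and lies between 0.01 and 0.11 for the 4 protein lists.

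The genes whose profile over the 4 libraries lay closest to the median profile of the 8 members were MALAT1, RNU4ATAC, CMC4, GSPT2 and ZNF295-AS1. Closeness was the Euclidean distance between log2 CPM values centred on each gene's mean, from 0.0752 for MALAT1 to 0.161 for ZNF295-AS1, with only 4 points per gene. MALAT1, a long non-coding RNA retained in the nucleus, stood at 24.6 and 25.7 against 44.8 and 56.1 CPM, a log2 fold change of 1.01 ± 0.14. GSPT2 had 1.04 ± 0.32, ZNF295-AS1 0.93 ± 0.31 and CMC4 1.68 ± 0.53. These genes were picked for their likeness to the members, so their fold changes describe that choice and no test is given.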

How the data were processed

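RNA-seq counts from 4 libraries (2 per group, groups and replicate numbers from the titles) were analysed. Per the file headers, the deposited values are raw fragment counts made by the authors with featureCounts 1.6.4 on GENCODE 44, for pairs with both ends mapped, without chimeric pairs, strand or multi-mapping options. Per the submitters' processing notes, STAR 2.7.9a, GRCh38 and DESeq2 1.42.0 were used. Removal of duplicate reads and read length are not given in the sources used here. The labels' protocols give ribosomal RNA depletion. All 62700 gene identifiers were paired with symbols, and the exon length deposited with each gene was used for levels per kilobase.

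Counts were tested with edgeR 4.0.16 (glmQLFit, glmQLFTest) in R 4.3.3 after filterByExpr and TMM, with Benjamini-Hochberg adjustment over 18973 genes, a threshold of 0.05 and no block, and the procedure was tested on simulated data. Standard errors are the log2 fold change over the square root of F. DESeq2 1.42.0 was an alternative. Sequences came from GENCODE 29 transcripts; alignments used Biopython 1.88, intervals and the permutation test SciPy 1.17.1, and plots matplotlib 3.10.9. The members and lists were chosen with earlier results of these data known. Named genes were all members, the 3 genes with the smallest p in each of 7 lists, and the 5 other genes of at least 1 mean CPM nearest in profile (0.5 CPM added before the log2); ENSG00000285646, host genes and identical U1 loci were named for their position or sequence. The sequences of the U5 genes are not reported here.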

Additional observations from a re-analysis of the deposited data

How the results depend on the processing

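With all 4 libraries 0 of 8 members passed. The count was 1 with library size alone and 6 without a filter on low counts, where 39689 genes were tested and 183 passed as higher and 119 as lower, against 51 and 3 in the main fit. With 1 library left out, the median log2 fold change of the members was 0.91 to 1.26. With library size alone the median of the members was 0.71, and the ratios of summed CPM were 1.66 for all members, 1.93 for U1, 1.44 for U4 and 1.70 for U5. ZNF143 stood at -0.045 there, 2675 genes passed as lower and 69 as higher, and the 4 protein lists held 3, 6, 5 and 7 lower genes. No member passed with DESeq2 (63 higher and 17 lower genes over the table), DESeq2 size factors (52 and 5), mitochondrial genes left out (27 and 3), a filter of 1 CPM in 2 libraries or thinning to the lowest total. All 8 members stayed above 0 in each alternative run. The other genes named from the lists were read in the planned settings that keep all 4 libraries. As higher, RNVU1-27 and RNVU1-15 passed without the filter and with the replicate block. RNU5E-4P passed in both and with library size alone (adjusted p 0.0398, edgeR), and RNU4ATAC without the filter (0.0326). As lower, SNRPC (edgeR adjusted p 0.00936), SNRPD2 (0.0164) and GEMIN7 (0.0424) passed with library size alone.

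The shared replicate numbers name no shared culture or day, and the replicate differences of the groups correlated at -0.10 over 11350 genes, so they were not taken to pair the samples. With the replicate block 6 of 8 members passed, beside 140 higher and 96 lower genes. Crossing the numbers, tried after seeing the data, gave 6 of 8 members, with 208 higher and 168 lower genes. Depth limits the precision: the members tested rest on 8 to 179 fragments per library, and U1 on bases outside its own sequence.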
